A study of Homo sapiens with 12 samples.

Results

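The mitochondrial ribosomal protein genes are the protein-coding genes whose symbols begin with MRPL or MRPS followed by a digit, without a hyphen, and 78 of the 60504 features of the deposited table met this rule. All 78 passed the filter on low values, which 14393 features passed in all, so every member was tested. Poly(A) RNA-seq libraries, 12 in number, were made from TKO cells, which carry the genotype label WHSC1(+/-) and derive from KMS-11, a human myeloma line whose t(4;14) translocation raises NSD2, also called WHSC1, an enzyme that methylates histone H3 at K36. In TKO cells the translocated NSD2 allele is disrupted. The cells expressed NSD2 p.D1240A from a vector (D1240A), NSD2 p.F1295A from a vector (F1295A), wild-type NSD2 from a vector (WT), or carried no vector (TKO), with 3 biological replicates in each of the 4 groups. Both substitutions lie after the catalytic SET domain. The design asks how mutant NSD2 changes gene expression. No cells with a vector lacking NSD2 are among these groups, so every difference from TKO is also one between cells that carry a vector and cells that do not; the sources used here do not name the promoter of the vector.

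Mitochondrial ribosomes sit in the mitochondrial matrix and translate only the few mRNAs of the mitochondrial genome, which encode core subunits of the respiratory chain and of ATP synthase. Their rRNAs are transcribed from mitochondrial DNA, whereas all their proteins are encoded in the nucleus, made in the cytosol and imported. The large subunit (mostly MRPL names) forms peptide bonds and the small subunit (mostly MRPS names) reads the mRNA. Many of the proteins have counterparts in bacterial ribosomes, and others were added during the evolution of mitochondria. Plasma cells, from which myeloma arises, secrete large amounts of antibody, which is made by cytosolic ribosomes and not by these ones.

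Values are FPKM (fragment counts divided by transcript length and library size), rescaled between libraries, and differences are log2(FPKM + 0.5) of the group named first minus that of the group named second, with their standard error (SE). A gene was called higher or lower where its limma p, adjusted by Benjamini-Hochberg over all tested genes, was under 0.05. The sequencing depth is unknown, so no counting error can be given. NSD2 itself was at 251 ± 8.43 FPKM in D1240A, 164 ± 6.56 in F1295A, 190.5 ± 3.88 in WT and 60.1 ± 2.26 in TKO (SD, n = 3 each), so that the vector lines are also unlike each other in NSD2. D1240A replicate 2 stood apart, with ribosomal RNA features at 51.4% of its FPKM sum, against 0.133% to 0.995% in the other libraries, and D1240A results that change without it are given both ways. Of 10 plasma cell markers, 8 averaged at least 1 FPKM in D1240A, 8 in F1295A, 7 in WT and 8 in TKO, and the summed level of all 10 was 3892 to 4219 FPKM in D1240A, 4701 to 5113 in F1295A, 4744 to 4977 in WT and 2411 to 2619 in TKO libraries. SDC1, the surface proteoglycan by which plasma cells are recognised, was at 0.278 ± 0.130 FPKM in D1240A, 0.250 ± 0.101 in F1295A, 0.235 ± 0.0742 in WT and 4.01 ± 0.242 in TKO, so that this marker was near 0 in the vector lines. CD38 averaged under 1 FPKM in all 4 groups, and SLAMF7 in WT and TKO. Each list of 5 B cell, T cell, myeloid, fibroblast or epithelial markers summed to at most 4.0 FPKM in any library. The fibroblast sum was highest in D1240A (2.76 to 4.0 FPKM, against 1.40 to 1.86 FPKM in WT), with COL1A2 and COL3A1 at 0 in all 12 libraries. The part of these marker differences in the results was not tested. In RNA of whole cultures, fewer cells with a transcript and less of it per cell cannot be told apart.

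Mitochondrial ribosomal protein mRNAs were abundant but unequal. The median of the 78 mean levels was 57.1 FPKM, against 13.9 FPKM for tested protein-coding genes, and 73 members lay above that value. The highest were MRPL24 (219 FPKM over the 12 libraries), which in bacteria lies near the mouth of the peptide exit tunnel, the mitochondrion-specific small-subunit protein MRPS34 (217), MRPL20 (209), MRPL9 (205), both rRNA-binding proteins in bacteria, and MRPL12 (185), the protein of the flexible stalk that recruits translation factors. The lowest were MRPL41 (5.90 FPKM), MRPL57 (9.68), MRPS31 (10.9), MRPL50 (12.2) and MRPS17 (13.5). FPKM is a level per length of transcript, so these values can be set beside each other.

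**Figure D1:**
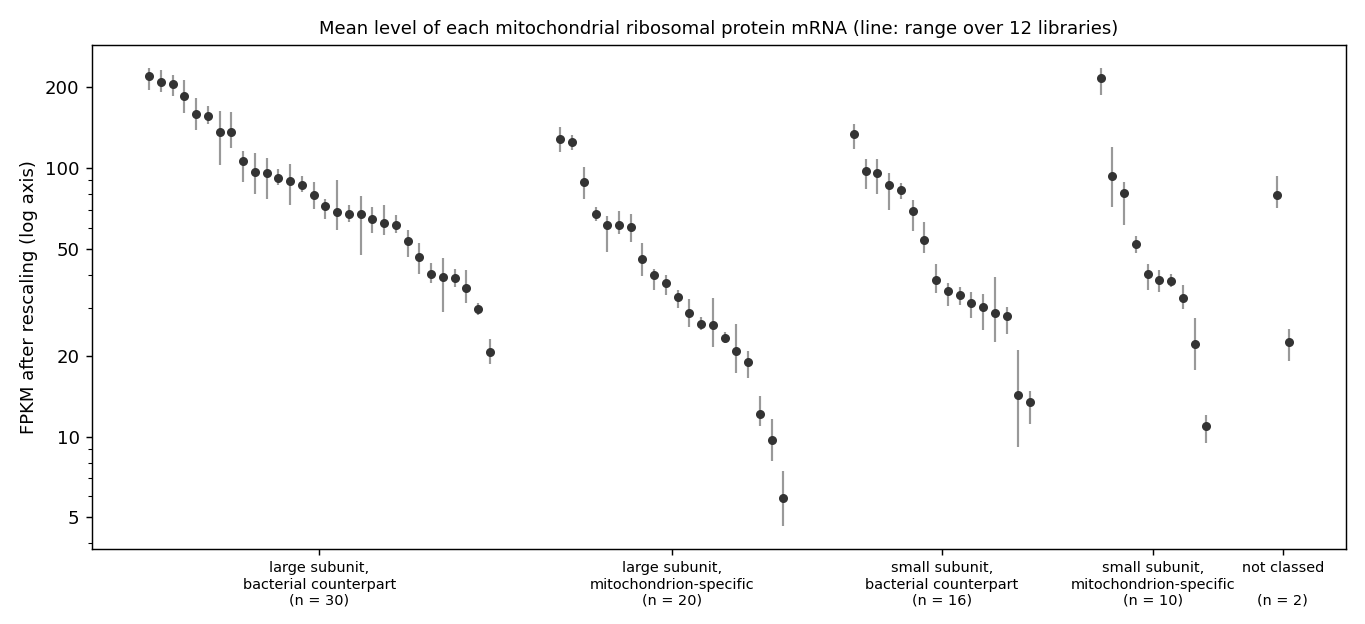
Mean level of each of the 78 mRNAs over 12 libraries (dots, FPKM after rescaling on a log axis), grouped by subunit and by whether the protein has a bacterial counterpart; each vertical line runs from the lowest to the highest library. The 46 genes with a bacterial counterpart had a median of 67.9 FPKM and the 30 mitochondrion-specific genes 38.1 FPKM, with wide overlap.

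By subunit, 51 members encode large-subunit proteins, with a median level of 62.5 FPKM, and 26 small-subunit proteins, with 38.2 FPKM. The large subunit includes MRPS30 and MRPS18A despite their names, and MRPS36 belongs to no subunit, being a component of the oxoglutarate dehydrogenase complex. In the classing used here 46 members have a bacterial counterpart, 30 are mitochondrion-specific and 2 (MRPL55 and MRPS36) were not classed. MRPS18A was counted among the 46 and MRPS18B among the 30. The levels of single members were steady between replicates: the median pooled SD within groups was 0.065 on the log2 scale for the members and 0.096 for all tested genes. The genes lie on 21 chromosomes. In the GENCODE 29 annotation, exons of 30 members overlap exons of other tested genes, most in MRPL53 (45.2% of its exon bases, with CCDC142), MRPS18C (40.2%), MRPL43 (36.9%, with SEMA4G and TWNK) and MRPL51 (31.3%). The sources used here do not give the strand setting of the counting, so reads of such pairs could be split between them. For 34 members the table also lists pseudogenes by name, 75 in all, but only for MRPS31 did their summed FPKM exceed 5% of the gene's own level (84.3%).

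The promoters of 69 members (RefSeq, GRCh38.p14, from 250 bases before to 50 after the start site) were searched on both strands for short motifs of factors known to act on nuclear genes of mitochondrial translation. The ETS motif CCGGAAG, bound by GABPA, occurred in 29 of the 69 promoters (42.0%), against 20.5% of the promoters of tested protein-coding genes and 10.7% of all 27305 promoters. The YY1 motif AAGATGG occurred in 23 (33.3%), against 8.04% and 6.06%. The E-box CACGTG, bound by MYC and MAX, was in 6 (8.70%), against 10.6% and 7.43%. The NRF1 motif, GCGC followed by any 1 base and then TGCGC, was in 8 (11.6%), against 12.6% and 6.28%, and in 1 of these 8 the free base was A. None of these motifs contains another. Among members later called higher in WT than in TKO, 4 of 19 promoters held the ETS motif and 6 of 19 the YY1 motif; among those called lower, 7 of 18 and 3 of 18; among those not called, 18 of 32 and 14 of 32. A match is a string of letters and not a site of binding.

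Promoters of 2 genes that were higher in WT than in TKO (MRPL22 and MRPL11) and of 2 that were lower (MRPS21 and MRPS33) show these matches in capitals, 5′ to 3′ on the strand of the gene. Only promoters with a match are shown. Those of MRPS15 and MRPL12, higher in WT, and of MRPS6, lower in WT, held none of these motifs. MRPL22 (GRCh38 chr5:154940823-154941122, plus strand) held the YY1 motif on its own strand at position 36 after the start site and the E-box at position -176. MRPL11 (chr11:66438799-66439098, minus strand) held the YY1 motif at position 25. MRPS21 (chr1:150293611-150293910, plus strand) held the ETS motif on the opposite strand at positions -11 and 8, and MRPS33 (chr7:141014903-141015202, minus strand) held it on the opposite strand at position 1 and the NRF1 motif on the opposite strand at -155.
MRPL22: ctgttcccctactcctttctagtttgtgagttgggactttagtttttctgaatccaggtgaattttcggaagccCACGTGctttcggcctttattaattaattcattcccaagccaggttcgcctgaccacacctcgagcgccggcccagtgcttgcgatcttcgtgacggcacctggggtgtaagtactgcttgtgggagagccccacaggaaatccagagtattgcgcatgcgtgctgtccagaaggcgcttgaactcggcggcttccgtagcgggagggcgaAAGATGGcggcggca
MRPL11: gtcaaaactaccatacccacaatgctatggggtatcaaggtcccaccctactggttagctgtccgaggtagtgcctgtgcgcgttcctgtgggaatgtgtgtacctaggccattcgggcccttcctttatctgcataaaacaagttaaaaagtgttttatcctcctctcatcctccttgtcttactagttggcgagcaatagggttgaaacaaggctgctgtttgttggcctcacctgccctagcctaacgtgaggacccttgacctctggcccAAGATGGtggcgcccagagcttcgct
MRPS21: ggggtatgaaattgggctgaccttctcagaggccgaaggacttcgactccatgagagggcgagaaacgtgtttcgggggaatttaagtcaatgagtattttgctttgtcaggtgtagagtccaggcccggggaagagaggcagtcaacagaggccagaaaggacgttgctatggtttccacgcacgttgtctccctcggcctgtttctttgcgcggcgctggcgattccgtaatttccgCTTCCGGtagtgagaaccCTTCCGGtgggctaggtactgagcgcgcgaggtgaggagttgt
MRPS33: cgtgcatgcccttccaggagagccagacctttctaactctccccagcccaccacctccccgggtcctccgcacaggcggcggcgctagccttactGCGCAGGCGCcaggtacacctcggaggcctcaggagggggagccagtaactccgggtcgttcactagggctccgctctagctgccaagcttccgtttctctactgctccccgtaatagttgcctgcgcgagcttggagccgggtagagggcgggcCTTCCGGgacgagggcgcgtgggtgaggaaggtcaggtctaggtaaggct

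Wild-type NSD2 was set against no vector to see which genes its expression changed. Of the 78 members, 25 were higher and 18 lower in WT than in TKO, 55.1% in all, against 49.7% of all tested genes (25.8% higher and 23.9% lower). The share of members called was thus close to the background in the rescaled values; without rescaling, 16 members were called (20.5%), against 36.6% of all tested genes. Calls fell in both directions: the members' median difference was 0.04, against -0.01 for all tested genes, and their quartiles were -0.13 and 0.16, against -0.21 and 0.24. No member changed by as much as 2-fold.

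The largest rise was that of MRPL22 (chr5:154941070-154969411 on GRCh38), whose bacterial counterpart lines the peptide exit tunnel. It had 76.2, 78.6 and 70.8 FPKM in WT libraries, against 47.6, 49.7 and 49.7 FPKM in TKO libraries, a difference of 0.61 (SE 0.04, adjusted p = 2.27e-07). Every WT library was above every TKO library. MRPL23 (chr11:1947278-1984522), at the tunnel mouth in bacteria, had 163, 153 and 152 FPKM in WT and 103, 108 and 109 FPKM in TKO libraries, a difference of 0.54 (SE 0.04, adjusted p = 2.96e-07). MRPL10 (chr17:47823272-47831534), which anchors the stalk, had 45.6, 46.1 and 42.7 FPKM in WT and 29.1, 30.4 and 32.8 FPKM in TKO libraries, a difference of 0.54 (SE 0.06, adjusted p = 1.23e-05). For both genes the 2 groups stood clear of each other. MRPL11, the other protein of the stalk base, was at 102 ± 8.51 FPKM in WT and 79.6 ± 2.67 FPKM in TKO (SD, n = 3 each; 0.35, adjusted p = 0.000464), and MRPL12 of the stalk itself at 206 ± 5.68 and 170.1 ± 6.65 FPKM (0.28, adjusted p = 0.000507). All 3 stalk genes were thus higher in WT. MRPS15, a small-subunit protein that in bacteria binds rRNA early in assembly, had 89.8, 95.5 and 92.9 FPKM in WT and 69.5, 70.8 and 75.3 FPKM in TKO libraries (0.37, adjusted p = 4.94e-06). Smaller rises came from MRPL41, a mitochondrion-specific large-subunit protein (6.50 FPKM in WT and 5.07 in TKO; 0.33, adjusted p = 0.0123), MRPL48 (0.30, adjusted p = 0.00297) and MRPL21 (0.29, adjusted p = 0.000919), also of the large subunit. In each of these comparisons the WT libraries lay wholly above the TKO libraries.

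The largest fall was that of MRPS21 (chr1:150293720-150308979), a small-subunit protein whose bacterial counterpart lies near the path of the mRNA. It had 10.7, 12.7 and 12.2 FPKM in WT libraries, against 20.3, 21.0 and 20.5 FPKM in TKO libraries, a difference of -0.77 (SE 0.12, adjusted p = 0.000199). MRPS6 (chr21:34073224-34143034), on the platform of the small subunit in bacteria, had 28.3, 28.1 and 24.3 FPKM in WT and 38.5, 38.5 and 39.3 FPKM in TKO libraries, a difference of -0.52 (SE 0.07, adjusted p = 6.15e-05). The gene SLC5A3 lies within the MRPS6 locus and shares 6.35% of its exon bases. MRPS33, a mitochondrion-specific small-subunit protein, had 84.4, 87.4 and 82.2 FPKM in WT and 107, 117 and 119 FPKM in TKO libraries (-0.43, adjusted p = 0.000281). In these 3 genes no WT library reached a TKO library. MRPL32, a large-subunit protein that the inner-membrane m-AAA protease trims before it joins the ribosome, had 121, 119 and 119 FPKM in WT and 153, 161 and 154 FPKM in TKO libraries (-0.38, adjusted p = 4.84e-05). MRPL34 (-0.38, adjusted p = 0.00106), MRPL39 (-0.37, adjusted p = 0.000478), MRPL50 (-0.28, adjusted p = 0.000215) and MRPL57 (-0.28, adjusted p = 0.00192) encode large-subunit proteins and were also lower in all 3 WT libraries than in any TKO library. Exons of MRPL34 overlap those of ABHD8 over 13.2% of their bases.

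**Figure D2:**
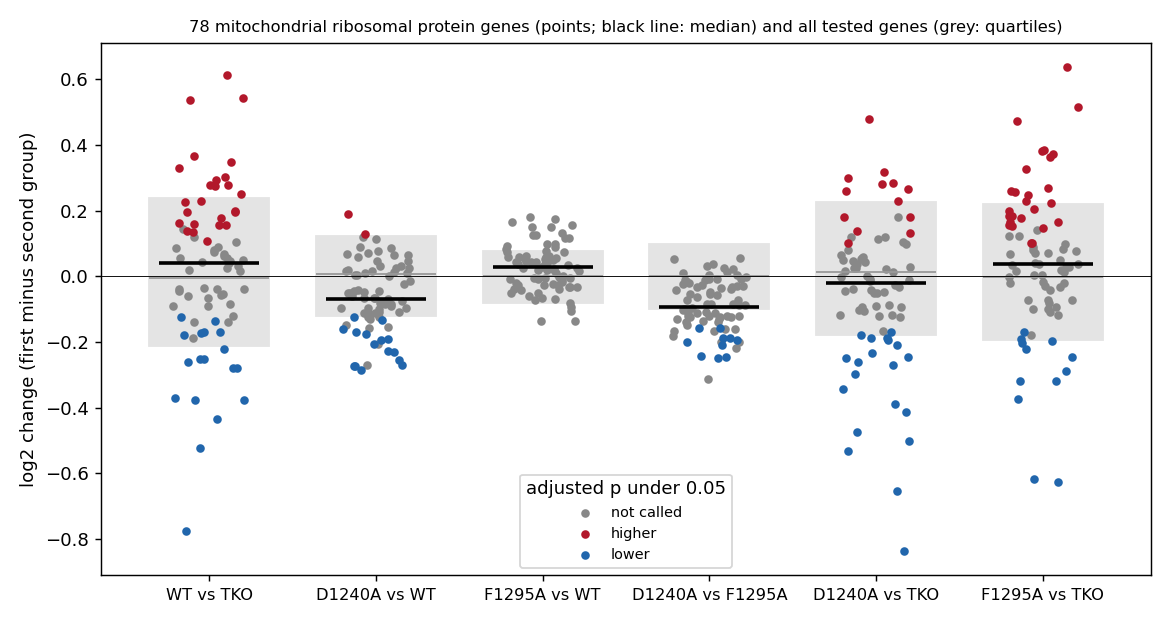
log2 difference of each of the 78 genes (points) in 6 comparisons, the group named first minus the group named second; red and blue points passed an adjusted p of 0.05 and black lines are the members' medians. Grey boxes span the quartiles of all 14393 tested genes: the members spread to both sides in the comparisons with TKO, lie mostly below 0 in D1240A vs WT and in D1240A vs F1295A, and none is called in F1295A vs WT.

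By subunit, 19 of 51 large-subunit genes were higher and 13 lower in WT, and 6 of 26 small-subunit genes were higher and 5 lower. By origin, 17 of 46 genes with a bacterial counterpart were higher and 11 lower, and 7 of 30 mitochondrion-specific genes were higher and 7 lower. Whether these classes differ was not tested. Leaving out each library in turn, 34 of the 43 calls stood in every case, and 36 to 46 members were called.

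Some of these differences ran in step with those of the genes around them. For each gene the median difference of the 50 nearest tested genes on its chromosome was taken. Around MRPL22 on chromosome 5 this median was 0.43, and MRPL22 itself lay 0.18 above it (adjusted p = 0.00519 after subtraction). Around MRPS6 and MRPL39 on chromosome 21 it was -0.38 and -0.34; after subtraction their differences were -0.14 (adjusted p = 0.109) and -0.04 (adjusted p = 0.724), so neither remained called. The same held for MRPS33 on chromosome 7, with neighbours at -0.25 and -0.19 left (adjusted p = 0.0611). MRPL43 on chromosome 10, higher by 0.25 in WT, had neighbours at 0.43 and lay -0.18 from them (adjusted p = 0.00294), the opposite direction. MRPL23 (-0.02), MRPL10 (-0.05), MRPS15 (-0.02) and MRPS21 (-0.06) had neighbours close to 0. With the neighbours subtracted for every gene, 22 members were higher and 18 lower, against 46.1% of all tested genes called, and 32 of the 43 calls were shared with those made without subtraction.

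**Figure D3:**
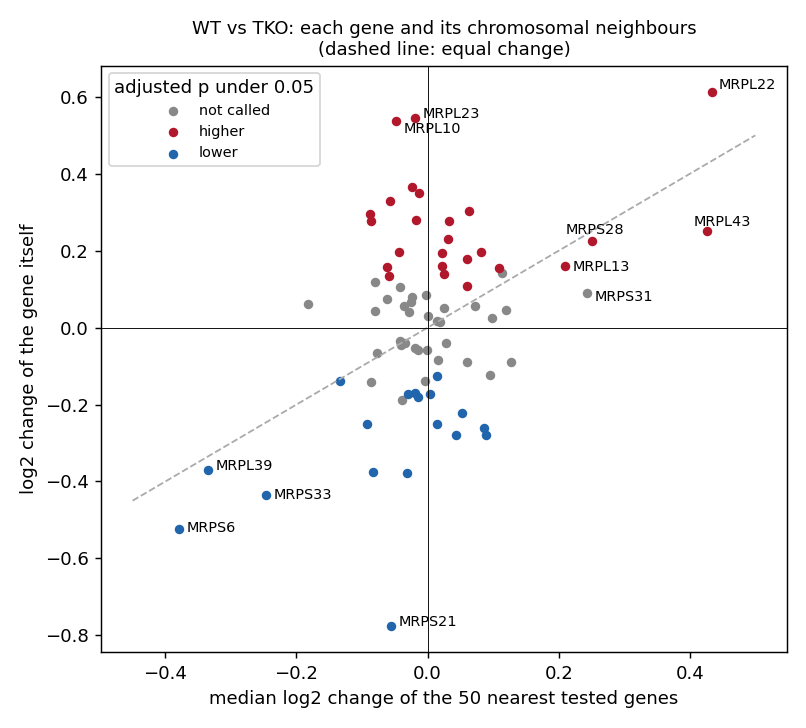
Difference between WT and TKO of each of the 78 genes (vertical axis, log2) against the median difference of the 50 tested genes nearest to it on its chromosome (horizontal axis, log2), with genes called at an adjusted p of 0.05 in red and blue. MRPL22, MRPL43, MRPS6, MRPL39 and MRPS33 lie among neighbours that moved the same way, while MRPL23, MRPL10 and MRPS21 lie above or below neighbours near 0.

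The mutant lines were set against the same TKO libraries, so the 3 comparisons with TKO share their controls and are given side by side. In F1295A, 26 members were higher and 12 lower than in TKO (48.7%, against 45.7% of all tested genes, 23.9% higher and 21.8% lower), with a median of 0.04. In D1240A, 13 were higher and 20 lower (42.3%, against 44.5%, 23.3% higher and 21.2% lower), with a median of -0.02, and without D1240A replicate 2 there were 16 higher and 18 lower. Of the 25 members higher in WT, 11 were called higher in both mutants, 12 in F1295A but not in D1240A, and 2 in neither. MRPL2, MRPL21, MRPL24 and MRPS9, among these 12, were called higher in D1240A too once D1240A replicate 2 was left out. Of the 18 lower in WT, 11 were called lower in both mutants, 4 in D1240A but not in F1295A, and 3 in neither. MRPL54, among these 4, lost its call in D1240A without D1240A replicate 2. No member was called in opposite directions in any 2 of these comparisons, and 26 members were called in none of them. How these patterns compare with those of all tested genes was not tested.

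The members with the largest differences in WT differed from TKO in the same direction in both mutants. MRPL22 was higher than in TKO by 0.48 in D1240A, 0.64 in F1295A and 0.61 in WT, and MRPL11 by 0.30, 0.39 and 0.35. With its neighbours subtracted, MRPL22 in D1240A no longer differed from TKO past the threshold (-0.0033, adjusted p = 0.961). MRPL10 was higher by 0.27 in D1240A (adjusted p = 0.00301), 0.52 in F1295A and 0.54 in WT. MRPS21 differed by -0.84 in D1240A, -0.62 in F1295A and -0.77 in WT, and MRPS6 by -0.65, -0.63 and -0.52. The D1240A values were -0.69 for MRPS21 and -0.59 for MRPS6 without D1240A replicate 2, so the order of the groups depends on that library. In D1240A, MRPS27, an RNA-binding protein of the small subunit, was at 42.7 ± 1.33 FPKM, against 35.5 ± 0.636 FPKM in TKO (0.26, adjusted p = 0.000102), and MRPS10 at 35.4 against 31.2 FPKM (0.18, adjusted p = 0.000423). Some members stood nearer to TKO in D1240A. MRPL12, with 184, 164 and 160.1 FPKM in D1240A libraries and 165, 168 and 178 FPKM in TKO libraries, differed by -0.01 (adjusted p = 0.888), with overlapping groups. MRPS26, a mitochondrion-specific small-subunit protein, lay furthest from TKO in D1240A: it had 18.6, 17.7 and 18.1 FPKM in D1240A, 19.6, 21.1 and 24.3 in F1295A, 22.2, 21.6 and 22.3 in WT and 27.6, 26.1 and 25.8 in TKO libraries, and the differences from TKO were -0.53, -0.29 and -0.26. MRPL45, a large-subunit protein at the tunnel exit that contacts the inner membrane, was higher than in TKO by 0.29 in D1240A, 0.26 in F1295A and 0.16 in WT. Without D1240A replicate 2, MRPL54, MRPS7, MRPS22 and MRPS31 lost their calls in D1240A vs TKO, and the other 29 kept theirs. In the same fit MRPL2 (0.14), MRPL21 (0.16), MRPL24 (0.13), MRPS5 (0.15) and MRPS9 (0.14) gained a call, all higher than in TKO. Their adjusted p ran from 0.00963 to 0.0418.

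**Figure D4:**
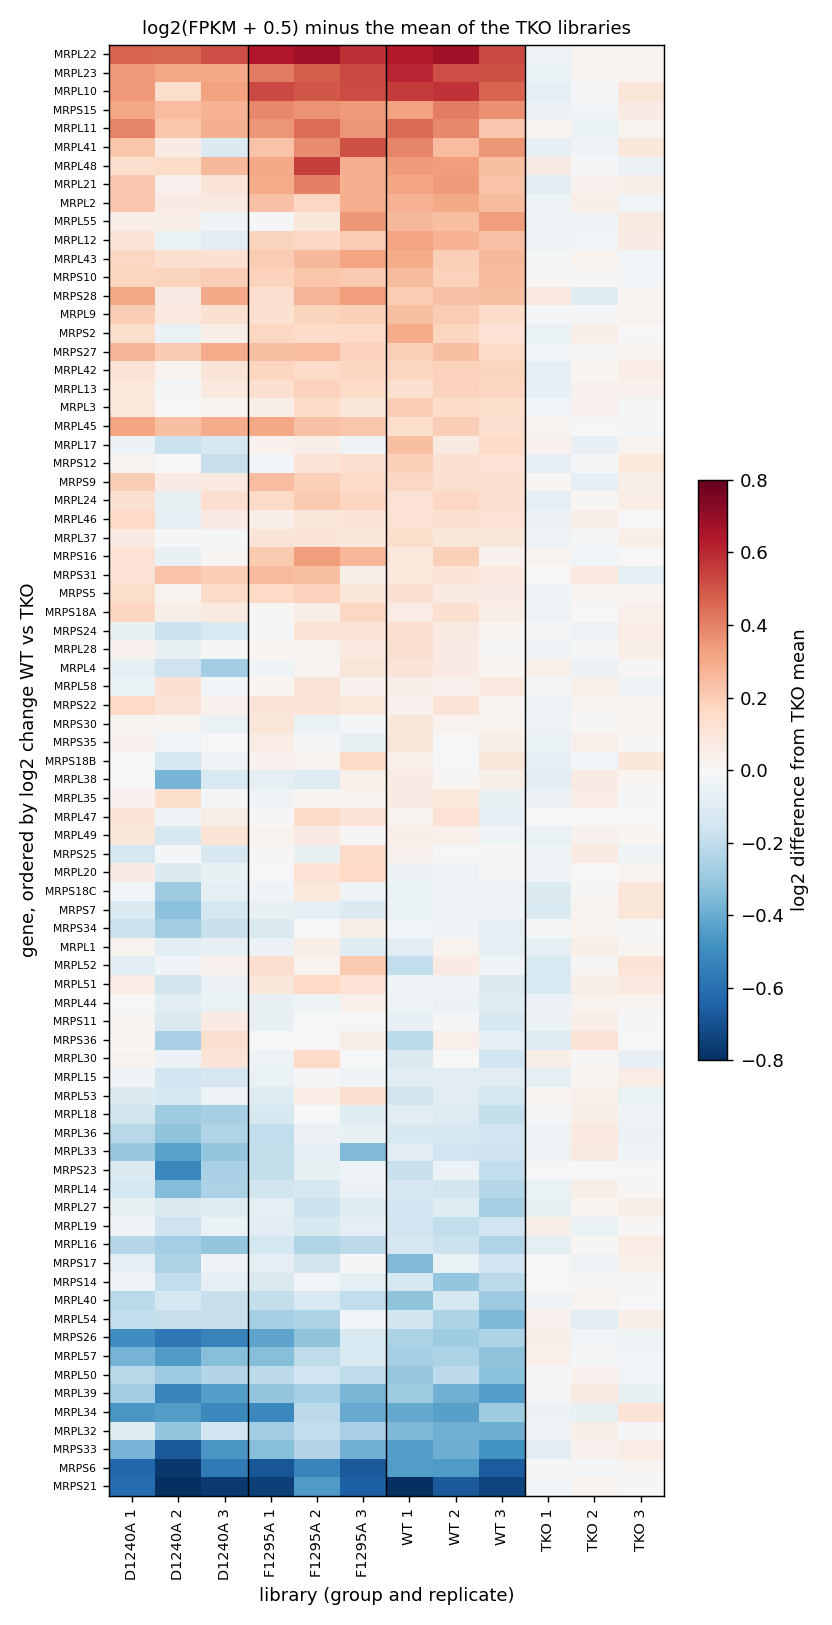
log2(FPKM + 0.5) of each of the 78 genes in each of the 12 libraries minus the mean of the 3 TKO libraries, with genes ordered by their difference between WT and TKO. The genes at the top and bottom differ from TKO in the 9 vector libraries, and in D1240A many genes are bluer than in F1295A and WT, D1240A replicate 2 most of all.

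D1240A was set against WT to see what the substitution changed. Of the 78 members, 2 were higher and 15 lower in D1240A, 21.8%, against 19.1% of all tested genes (8.21% higher and 10.9% lower). Of the members' 17 calls 88.2% were lower, against 57.1% of all calls. The members' median was -0.07, against 0.01 for all tested genes, and 51 of the 78 lay below 0, against 48.4% of all tested genes. Without D1240A replicate 2, 4 members were higher and 7 lower (14.1%, against 15.7% of all tested genes), with a median of -0.04, against 0.00. Of all tested genes, 960 were higher and 1277 lower without this library. In that library set against the other 2 D1240A libraries the members differed by a median of -0.08 on the log2 scale (65 of 78 below), while that of all tested genes was 0.00; the part of its ribosomal RNA in this was not tested. Their summed level was 5329, 4915 and 5124 FPKM in D1240A, 5353, 5586 and 5568 in F1295A, 5494, 5482 and 5324 in WT, and 5150, 5335 and 5381 in TKO libraries, so that only D1240A replicates 2 and 3 fell below every other library.

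Genes of the stalk were among those that fell most. MRPL12 had 184, 164 and 160.1 FPKM in D1240A libraries, against 212, 206 and 200.4 FPKM in WT libraries, a difference of -0.29 (SE 0.05, adjusted p = 0.0019). MRPL10 had 39.0, 33.8 and 38.5 FPKM in D1240A and 45.6, 46.1 and 42.7 FPKM in WT libraries, a difference of -0.27 (SE 0.06, adjusted p = 0.00802). Every D1240A library lay below every WT library in both, and without D1240A replicate 2 the differences were -0.26 (adjusted p = 0.00798) and -0.21 (adjusted p = 0.021). MRPL17, which in bacteria lies by the tunnel exit, had 34.1, 31.3 and 32.2 FPKM in D1240A and 41.8, 37.2 and 39.3 FPKM in WT libraries, a difference of -0.27 (SE 0.05, adjusted p = 0.00298). MRPL23 had 135, 132 and 132 FPKM in D1240A and 163, 153 and 152 FPKM in WT libraries, a difference of -0.23 (SE 0.04, adjusted p = 0.0019). MRPL4, whose bacterial counterpart lines the exit tunnel, had 102, 96.0 and 88.5 FPKM in D1240A and 116, 113 and 109 FPKM in WT libraries, a difference of -0.23 (SE 0.05, adjusted p = 0.00997). MRPS26 differed by -0.27 (SE 0.06, adjusted p = 0.0117). These 6 genes, MRPL4, MRPL10, MRPL12, MRPL17, MRPL23 and MRPS26, were called without each of the 12 libraries in turn. MRPL11, the remaining stalk gene, averaged 98.1 ± 5.69 FPKM in D1240A and 102 ± 8.51 FPKM in WT and was not called (-0.05, adjusted p = 0.606).

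The other lower calls were MRPL55 (-0.26), MRPL33 (-0.21), MRPS12 (-0.20), MRPS24 (-0.19), MRPL21 (-0.18), MRPS34 (-0.17), MRPL2 (-0.16), MRPL22 (-0.13) and MRPL3 (-0.12), and each lost its call without at least 1 library. All but MRPS24 lost it without D1240A replicate 2, where their adjusted p ran from 0.0529 to 0.148. MRPL33 and MRPS12 share exon bases with BABAM2 (21.1%) and SARS2 (16.3%). The 2 genes higher in D1240A than in WT were MRPL32, with 145, 125 and 140.3 FPKM in D1240A and 121, 119 and 119 FPKM in WT libraries (0.19, adjusted p = 0.0191), and MRPL45, at 20.4 ± 0.556 and 18.7 ± 0.466 FPKM (0.13, adjusted p = 0.037). Each of these 2 lost its call without at least 1 library, although both held it without D1240A replicate 2. Without that replicate MRPL19 (0.13, adjusted p = 0.0353) and MRPS14 (0.17, adjusted p = 0.0429) were called higher too. Of the 25 members higher in WT than in TKO, 9 were lower in D1240A than in WT, 1 was higher and 15 were not called. Among these 9, MRPL10, MRPL12, MRPL17 and MRPL23 kept the lower call without D1240A replicate 2. MRPL2, MRPL3, MRPL21, MRPL22 and MRPL55 lost it. Of the 18 lower in WT, 1 was higher in D1240A, 1 lower and 16 not called, and MRPL19 and MRPS14 among these 16 were higher without D1240A replicate 2. The WT libraries enter both comparisons, so these counts are not independent. They are not set against all tested genes, so whether this pattern is particular to the members was not tested. By subunit, 11 of 51 large-subunit and 4 of 26 small-subunit genes were lower in D1240A. By origin, 12 of 46 genes with a bacterial counterpart and 2 of 30 mitochondrion-specific genes were lower, and the difference between these classes was not tested. Without D1240A replicate 2 the lower calls were MRPL4, MRPL10, MRPL12, MRPL17, MRPL23, MRPS24 and MRPS26, of which only MRPS26 is mitochondrion-specific. The number called also turned on single libraries: it was 7 without WT replicate 1, 10 without WT replicate 2, 11 without WT replicate 3, 8 without D1240A replicate 3 and 11 without D1240A replicate 2. The share of all tested genes called fell in these fits as well, to between 12.1% and 15.7%, against 19.1% with all libraries.

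**Figure D5:**
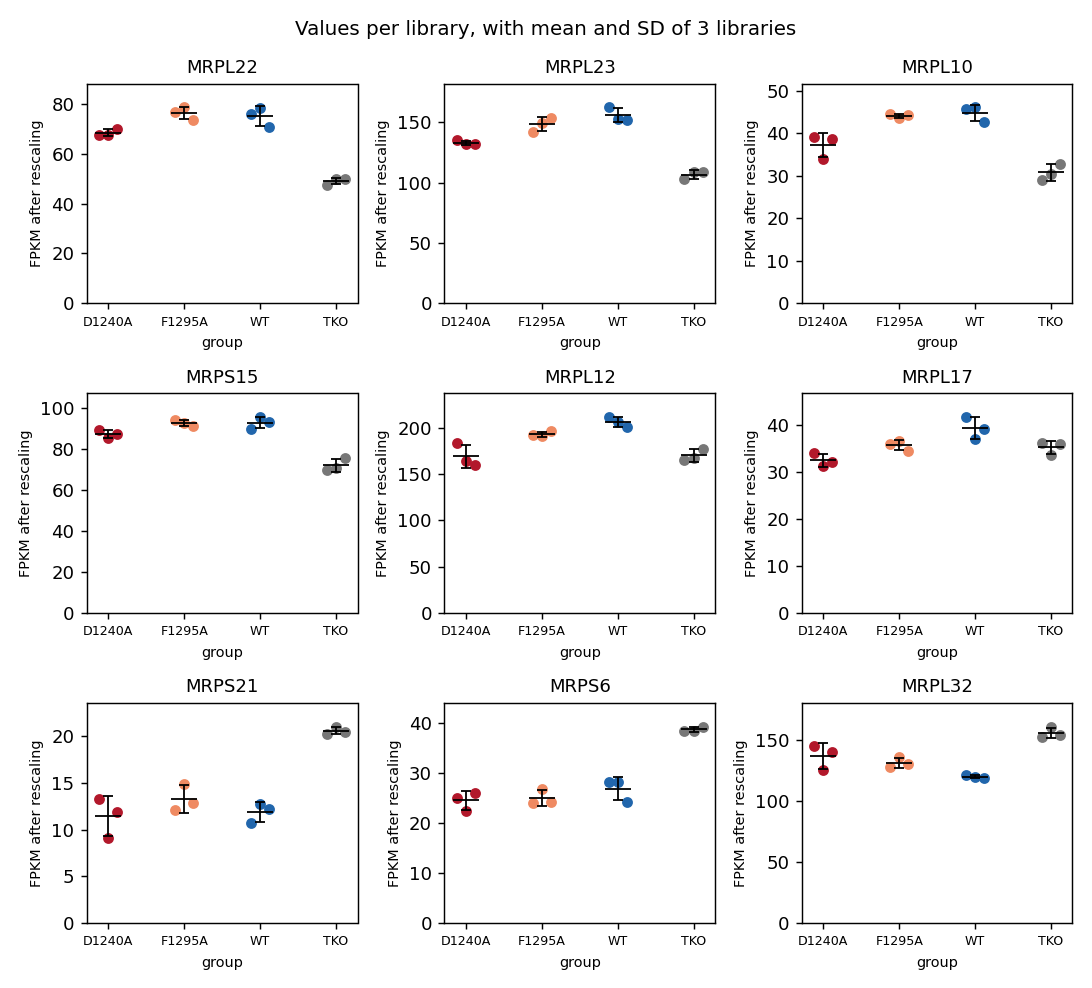
FPKM after rescaling in each library (dots, left to right replicates 1 to 3) with the mean and SD of the 3 libraries of each group, for 9 genes named for their differences. MRPL22, MRPL23, MRPL10 and MRPS15 are higher in all 9 vector libraries than in TKO, MRPS21, MRPS6 and MRPL32 are lower, and MRPL12 and MRPL17 in D1240A lie below WT.

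F1295A was set against WT in the same way. None of the 78 members was called by limma (0%, against 2.71% of all tested genes), and 9 had an unadjusted p under 0.05, against 16.2% of all tested genes. The smallest adjusted p was 0.13. The members' differences ran from -0.14 to 0.18 with a median of 0.03. MRPL10, for example, had 44.5, 43.6 and 44.3 FPKM in F1295A and 45.6, 46.1 and 42.7 FPKM in WT libraries, and MRPL22 had 76.8, 78.8 and 73.7 FPKM in F1295A and 76.2, 78.6 and 70.8 FPKM in WT libraries. In both genes the groups overlapped. A missed threshold does not show that the 2 lines are alike in these genes, and 1 member was called without D1240A replicate 2, without F1295A replicate 1 or without F1295A replicate 3.

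The 2 mutants were compared directly. In D1240A, 10 members were lower than in F1295A and none was higher (12.8%, against 6.07% of all tested genes, 3% higher and 3.06% lower). The median was -0.09, against 0.00 for all tested genes, and 68 of 78 members lay below 0, against 49.7% of all tested genes. All 3 D1240A libraries lay below all 3 F1295A libraries in 26 members and above them in none, while 24% of all tested genes did not overlap in one direction or the other. MRPL10 had 39.0, 33.8 and 38.5 FPKM in D1240A and 44.5, 43.6 and 44.3 FPKM in F1295A libraries, a difference of -0.25 (SE 0.06, adjusted p = 0.033). MRPS16, a small-subunit protein in which mutations cause a respiratory chain deficiency, had 54.2, 48.0 and 50.8 FPKM in D1240A and 57.8, 63.2 and 60.3 FPKM in F1295A libraries, a difference of -0.24 (SE 0.05, adjusted p = 0.0218). The F1295A libraries were higher in every pairing of both genes. MRPS26 (-0.25), MRPL21 (-0.21), MRPL4 (-0.20), MRPL12 (-0.19), MRPS34 (-0.19), MRPS24 (-0.19), MRPL22 (-0.16) and MRPL23 (-0.16) were the other calls. None of the 10 held without every library: no member was called without D1240A replicate 2 or 3 or without F1295A replicate 2 or 3, and 16 were called without D1240A replicate 1. In the fits without any such call, 2.15% to 2.92% of all tested genes were called, and 8.53% without D1240A replicate 1. Leaving out a library of another group also lowered the number of members called. It was 6 without TKO replicate 1 or 3, 4 without TKO replicate 2, 5 without WT replicate 1, 3 without WT replicate 2 and 6 without WT replicate 3. Of all tested genes, 4.27% to 5.05% were called there. Without D1240A replicate 2 the median was -0.06. No member was called with these 2 groups alone in the fit, without the filter on low values or without rescaling. The share of all tested genes called fell too, to 0.632%, 1.46% and 0.436% in that order, against 6.07%. With the replicate number as a block, 1 member and 3.65% of all tested genes were called.

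Genes that work with these proteins were counted from lists chosen by function, and their counts stand against 25.8% of all tested genes higher and 23.9% lower in WT vs TKO, and 8.21% higher and 10.9% lower in D1240A vs WT. Of 5 mitochondrial ribosomal proteins with other names, none was higher and 2 were lower in WT than in TKO: DAP3, a GTP-binding small-subunit protein (345 ± 11.7 FPKM in WT and 372 ± 3.35 in TKO; -0.11, adjusted p = 0.0196), and CHCHD1 (-0.29, adjusted p = 0.0014), with a list median of -0.11, against -0.01 for all tested genes. Of 23 assembly and rRNA modification factors, 4 were higher and 8 lower in WT, with a median of -0.10. YBEY, an endonuclease of the small subunit, was at 21.7 ± 0.641 FPKM in WT and 37.1 ± 1.13 FPKM in TKO (-0.76, adjusted p = 6.87e-07; neighbours -0.40). RBFA, which matures the small subunit, was at 27.3 ± 0.990 and 44.5 ± 0.146 FPKM (-0.69, adjusted p = 6.73e-08; neighbours -0.29). The GTPase MTG1, which acts on the large subunit, was at 34.5 ± 1.22 and 22.8 ± 0.460 FPKM (0.58, adjusted p = 5.67e-07; neighbours 0.33). Each of these 3 kept its direction and its call after the neighbours were subtracted. In D1240A vs WT, 2 of the 23 were higher and none lower, and without D1240A replicate 2 none was called.

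Of 17 mitochondrial translation factors, 5 were higher and 6 lower in WT than in TKO, with a median of -0.03, and 2 were higher and 3 lower in D1240A than in WT (2 and 2 without D1240A replicate 2). The elongation factor TUFM, which brings aminoacyl-tRNA to the ribosome, had 247, 222 and 227 FPKM in D1240A, 261, 272 and 270.5 in F1295A, 282, 279 and 269.9 in WT and 230.4, 232 and 241 in TKO libraries; it was higher by 0.24 in WT than in TKO (adjusted p = 0.000365) and differed by -0.25 between D1240A and WT (adjusted p = 0.00118). SLIRP, which with LRPPRC protects mitochondrial mRNAs, had 246, 211 and 221 FPKM in D1240A, 258, 288 and 276 in F1295A, 292, 287 and 284 in WT and 196, 186 and 193 in TKO libraries (0.58 in WT vs TKO, adjusted p = 3.03e-06; -0.35 in D1240A vs WT, adjusted p = 0.0011). The D1240A libraries overlapped the TKO libraries in TUFM and lay between WT and TKO in SLIRP. The translocase GFM1, which moves the ribosome along the mRNA, was lower in WT than in TKO (-0.42, adjusted p = 2.31e-05), and its value in D1240A vs WT was 0.13 (adjusted p = 0.0961). Of 20 mitochondrial aminoacyl-tRNA synthetase and amidotransferase genes, 5 were higher and 3 lower in WT than in TKO, with a median of 0.03, led by SARS2 (0.50, adjusted p = 8.89e-06), and 1 was higher and 2 lower in D1240A than in WT (0 and 2 without D1240A replicate 2). In F1295A vs WT no gene of these 4 lists was called, and an unadjusted p under 0.05 was found for 1 of 5, 1 of 23, 4 of 17 and 3 of 20 genes in the order above.

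Of 14 regulators of mitochondrial gene expression, 4 were higher and 4 lower in WT than in TKO, with a median of -0.02, and 1 was higher and 3 lower in D1240A than in WT, with or without D1240A replicate 2. PPARGC1A, a coactivator of mitochondrial biogenesis, was at 2.44 ± 0.175 FPKM in D1240A, 2.90 ± 0.309 in F1295A, 3.64 ± 0.218 in WT and 0.966 ± 0.142 in TKO (SD, n = 3 each); it differed by 1.5 between WT and TKO (adjusted p = 2.16e-07) and by -0.50 between D1240A and WT (adjusted p = 0.00559). MYC, which in many cells drives growth and ribosome genes, had 168, 179 and 165 FPKM in D1240A, 203, 202 and 208 in F1295A, 248, 231 and 235 in WT and 156, 154 and 154 in TKO libraries. It was higher by 0.62 in WT than in TKO (adjusted p = 5.38e-08), and differed from WT by -0.48 in D1240A (adjusted p = 6.48e-06) and by -0.22 in F1295A (adjusted p = 0.00856). Its libraries fell in the order WT, F1295A, D1240A and TKO with no overlap between groups. ESRRA, a nuclear receptor that works with PPARGC1A, was lower in D1240A than in WT (-0.37, adjusted p = 0.0107), and YY1 was higher (0.13, adjusted p = 0.0232). GABPA differed by -0.35 between WT and TKO (adjusted p = 2.02e-05), with neighbours at -0.36, and by 0.04 between D1240A and WT (adjusted p = 0.501). Without D1240A replicate 2 the differences between D1240A and WT were -0.22 (adjusted p = 0.00427) for TUFM, -0.30 (adjusted p = 0.00365) for SLIRP, -0.51 (adjusted p = 7.71e-06) for MYC, -0.45 (adjusted p = 0.021) for PPARGC1A, -0.38 (adjusted p = 0.0268) for ESRRA and 0.14 (adjusted p = 0.0435) for YY1. Whether these factors bear on the ribosomal protein genes was not tested.

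The mRNAs that mitochondrial ribosomes translate are encoded in the mitochondrial genome. Of the 13 mitochondrially encoded mRNAs, 3 were lower in WT than in TKO and none higher, against 49.7% of all tested genes called, with a median of -0.08: MT-CO2 (-0.23, adjusted p = 0.00628), MT-ND2 (-0.24, adjusted p = 0.00834) and MT-CYB (-0.21, adjusted p = 0.014). None was called in D1240A vs WT (19.1% of all tested genes), where none reached an unadjusted p of 0.05, or in F1295A vs WT (2.71%), where 3 did. The mitochondrial small-subunit rRNA MT-RNR1 had 1172, 16773 and 1221 FPKM in D1240A, 1275, 1300.3 and 1257 in F1295A, 1195, 1142 and 1228 in WT and 1049.7, 1137 and 1143 in TKO libraries, so that D1240A replicate 2 stood far above all others here too. These rRNAs carry only short adenine tails, and their level in a poly(A) library need not follow their amount in the cell.

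In 16 pairs, a member and another protein-coding gene whose exons do not overlap start within 1000 bases of each other on opposite strands. In WT vs TKO both genes were called in 3 of these pairs, each time in the same direction, and over all 518 such pairs both were called in 143, of which 116 in the same direction. The 3 were MRPL57 with SKA3 (-0.28 and -0.30), MRPL50 with ZNF189 (-0.28 and -0.25) and MRPL32 with AC010132.3 (-0.38 and -0.37). MRPL21 and IGHMBP2 start 7 bases apart, and there MRPL21 was called and IGHMBP2 was not (0.29 and -0.06). In 1 pair both genes are members: MRPL46 and MRPS11 on chromosome 15 start 34 bases apart. MRPL46 was at 34.3 ± 0.0655 FPKM in WT and 31.5 ± 1.10 FPKM in TKO (0.12, adjusted p = 0.0739), and MRPS11 at 80.2 ± 3.37 and 84.0 ± 3.06 FPKM (-0.07, adjusted p = 0.288). Neither was called in any of the 6 comparisons. The promoter of MRPL46 (RefSeq GRCh38.p14, chr15:88467339-88467638, minus strand) is shown on the strand of that gene, with the YY1 motif at position 9 after its start site in capitals. The RefSeq promoter of MRPS11 held none of the motifs searched.
MRPL46: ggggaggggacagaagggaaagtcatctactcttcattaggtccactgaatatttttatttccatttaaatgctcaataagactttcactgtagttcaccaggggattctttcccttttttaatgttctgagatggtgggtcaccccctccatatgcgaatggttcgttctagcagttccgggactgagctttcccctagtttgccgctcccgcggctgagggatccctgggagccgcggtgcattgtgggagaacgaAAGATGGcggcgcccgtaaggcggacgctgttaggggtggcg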

How the data were processed

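Poly(A) RNA of 12 libraries in 4 groups of 3 biological replicates was sequenced. Per the submitters' processing notes, reads were handled with Trimmomatic 0.36, FastQC 0.11.4, STAR 2.7.9a, RSEM 1.3.1 and DESeq2 on GRCh38; no source used here names the annotation release or the strand setting. The deposited values were read as FPKM, a unit taken from the values themselves, so the sequencing depth is unknown and no counting error can be given; standard errors cover the spread between replicates. Structural RNA classes (7087 features) were left out. Libraries were rescaled by a trimmed mean (30% from each side, genes averaging at least 1 FPKM). Features with at least 0.5 FPKM in 3 or more libraries were tested with limma 3.58.1 in R 4.3.3 on log2(FPKM + 0.5), with all 12 libraries in 1 fit, group as the only term, a variance trend, and Benjamini-Hochberg adjustment over 14393 tests. The 6 comparisons share libraries. Tables and figures used Python 3.11.15, numpy 2.4.6, pandas 2.3.3 and matplotlib 3.10.9. Positions are from GENCODE 29 (GRCh38), and promoter sequences from RefSeq (GRCh38.p14), where 69 of 78 members were found by symbol; MRPL10, MRPL13, MRPL15, MRPL2, MRPL21, MRPL23, MRPL35, MRPS28 and MRPS36 were not searched. No 2 libraries held identical values. The fit was run on simulated data with known changes, drawn as independent normal values for each gene. No outlying library was simulated, so how the fit deals with a library such as D1240A replicate 2 was not tested.

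Genes were named by rule: up to 8 called members per direction and comparison with the largest difference among those whose groups do not overlap, the 5 highest and 5 lowest in level, those that reversed between WT vs TKO and a mutant vs WT, those next to another member, and up to 4 genes per partner list with the smallest adjusted p. MRPL43, MRPL3, MRPS12, the pairs of genes with opposed starts and the genes with the most exon overlap were chosen after their values were seen. The members and lists were chosen with earlier results of these data known. The alternatives tried were other pseudocounts, filters and scalings, library weights, a replicate block, fits of the compared groups only, subtraction of the median of 50 neighbouring genes, and leaving out each library.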

Additional observations from a re-analysis of the deposited data

How the results depend on the processing

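Under the alternatives to the 141 called differences, which were other pseudocounts (0.1 and 1), a filter at 1 FPKM, no filter, median-ratio scaling, structural RNAs kept, library weights, a replicate block, the compared groups alone and leaving out each library, no called difference of a member changed sign. Values as deposited, without rescaling, put the median of all tested genes at -0.10 and that of the members at -0.19 in D1240A vs WT, and at -0.12 and -0.17 in D1240A vs TKO, and split the calls over all genes into 249 higher and 1360 lower (1181 and 1573 with rescaling) and into 1590 higher and 3805 lower (3354 and 3051 with rescaling). As deposited, the members called numbered 16 in WT vs TKO, 9 in D1240A vs WT, 0 in D1240A vs F1295A and 18 in F1295A vs TKO, and 3 genes changed sign in D1240A vs TKO: MRPL43 (-0.012), MRPL9 (-0.019) and MRPS22 (-0.048). Without a filter, 11 members were called in D1240A vs WT and 0 in D1240A vs F1295A, and with the compared groups alone 10 and 0. Library weights left 6 calls in D1240A vs F1295A, and subtraction of the neighbours 4. The cause was not tested. Subtraction of the neighbours also turned the sign of MRPL13 (-0.048 in WT vs TKO, -0.041 in F1295A vs TKO), MRPS28 (-0.026 and -0.0070), MRPL43 (-0.18, -0.18, and -0.30 in D1240A vs TKO), MRPS31 (-0.014 in F1295A vs TKO, -0.034 in D1240A vs TKO), MRPL22 (-0.0033 in D1240A vs TKO) and MRPL39 (0.038 in F1295A vs TKO).

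Leaving out each library in turn, the number of members called ran from 36 to 46 in WT vs TKO, 7 to 19 in D1240A vs WT, 0 to 1 in F1295A vs WT, 0 to 16 in D1240A vs F1295A, 30 to 34 in D1240A vs TKO and 34 to 40 in F1295A vs TKO. Over every alternative, calls stood for 13 of 43 members in WT vs TKO, 6 of 17 in D1240A vs WT, 0 of 10 in D1240A vs F1295A, 16 of 33 in D1240A vs TKO and 16 of 38 in F1295A vs TKO.

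Same-numbered libraries were at most weakly correlated: over 18 pairs the correlation of deviations ran from -0.05 to 0.08, none over 0.1. Their median was 0.03, against -0.02 over the 36 pairs with unlike numbers. Whether libraries share a weaker effect of the replicate number was not tested. With the replicate number as a block, 42 members were called in WT vs TKO, 11 in D1240A vs WT, 0 in F1295A vs WT, 1 in D1240A vs F1295A, 33 in D1240A vs TKO and 39 in F1295A vs TKO. The depth behind the FPKM values is unknown, which limits what can be said of the least abundant members.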
